A study of Mus musculus with 35 samples.

Results

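The choroid plexus epithelium is the layer of cells in the brain ventricles that secretes cerebrospinal fluid, and 36 genes known for this epithelium were followed here in libraries made from the mouse amygdala. The genes were chosen by name, and all 36 of them were found among the 52636 genes counted in each of 35 libraries. All 36 are annotated as protein coding. The libraries came from 19 female mice of the inbred strain C57BL/6J or of the hybrid strain B6D2F1N, kept in standard housing or, from postnatal day 77, in enriched housing with 1 h per day on a playground, and every mouse had been trained for and had completed a cognitive judgement bias test. With laser capture microscopy, amygdala cells were cut from sections of a posterior and an anterior portion, and libraries were made from their polyadenylated RNA with a low-input kit. In the anterior portion there were 4 standard and 2 enriched C57BL/6J mice and 5 standard and 5 enriched B6D2F1N mice, and in the posterior portion 4 and 4 C57BL/6J mice and 5 and 6 B6D2F1N mice, so that replicates within a group were separate animals. Both portions were available from 16 mice, 6 of C57BL/6J and 10 of B6D2F1N, and the other 3 mice gave a posterior library only.

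The epithelium rests on a vascular stroma and is joined by tight junctions. It moves sodium, chloride, bicarbonate and water from blood to cerebrospinal fluid with polarised transporters, and it secretes carrier and growth factor binding proteins, of which transthyretin (Ttr), a carrier of thyroid hormone and retinol, is the best known. The amygdala itself contains no choroid plexus, but the lateral ventricle, with its choroid plexus and its lining of ciliated ependymal cells, lies near its caudal part. Several of the transporters and kinases are also used by other brain cells, and autotaxin (Enpp2) is known from oligodendrocytes as well.

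Levels are given as CPM, the reads of a gene scaled to the size of its library after TMM adjustment, and levels by strain, with the overlap of portions, are those of the 6 and 10 mice with both portions unless a comparison of strain or housing is named. Changes between portions are log2 fold changes from edgeR's quasi-likelihood test with the mouse as a block, positive where the posterior portion was higher. A gene was called where the p-value, adjusted over all genes tested by the Benjamini-Hochberg method, was at most 0.05. Portions are named here as in the labels. In the study's methods, however, the posterior sections lie closer to bregma than the anterior ones, the opposite of anatomical order, and whether the labels follow the names or the positions was not tested. An exchange would turn the sign of every portion change given here. In bulk samples, fewer cells of a type and less RNA per cell cannot be told apart.

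The libraries held 16938534 to 27352623 reads on genes (median 21409708). Neuronal, astrocyte and oligodendrocyte markers were found in all of them, with summed levels of 6 markers each of 927 to 5390 CPM for excitatory neurons, 4770 to 9170 CPM for astrocytes and 2320 to 31200 CPM for oligodendrocytes. The posterior libraries of mice 21BL and 23BLR, both B6D2F1N in enriched housing, stood apart in the choroid plexus genes, as did the anterior library of mouse 21BL. Among the posterior libraries, that of mouse 23BLR held the highest level of each of the 36 genes, and the anterior library of mouse 21BL held the highest anterior level of 18 of them. Results that rest on these mice are therefore given with and without them.

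Ttr was the gene with the widest range. In C57BL/6J mice it was found at 2.65 to 20.5 CPM (median 5.81) in the anterior and at 107 to 1430 CPM (median 642) in the posterior libraries, and the portions did not overlap. The range in B6D2F1N mice was 2.37 to 886 CPM (median 8.57) for anterior and 324 to 13700 CPM (median 1740) for posterior libraries. The overlap in this strain came from the anterior library of mouse 21BL, since without mice 21BL and 23BLR the highest anterior level was 39.8 CPM and the lowest posterior level remained 324 CPM. Ttr was higher in the posterior library in 16 of 16 mice. It rose by a log2 fold change of 6.45 (SE 0.676, adjusted p = 1.38e-05, edgeR) in C57BL/6J and of 7.48 (SE 0.752, adjusted p = 3.32e-05, edgeR) in B6D2F1N mice, and by 7.46 (SE 0.594) in the latter without the 2 mice. The posterior libraries of mice 21BL and 23BLR held 13500 and 13700 CPM, while the next highest library held 4410 CPM. In reads, Ttr had 323162 of 21101828 on genes in mouse 21BL and 287570 of 17121764 in mouse 23BLR. The anterior library of mouse 23BLR, with 2.65 CPM, was among the lowest.

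**Figure D1:**
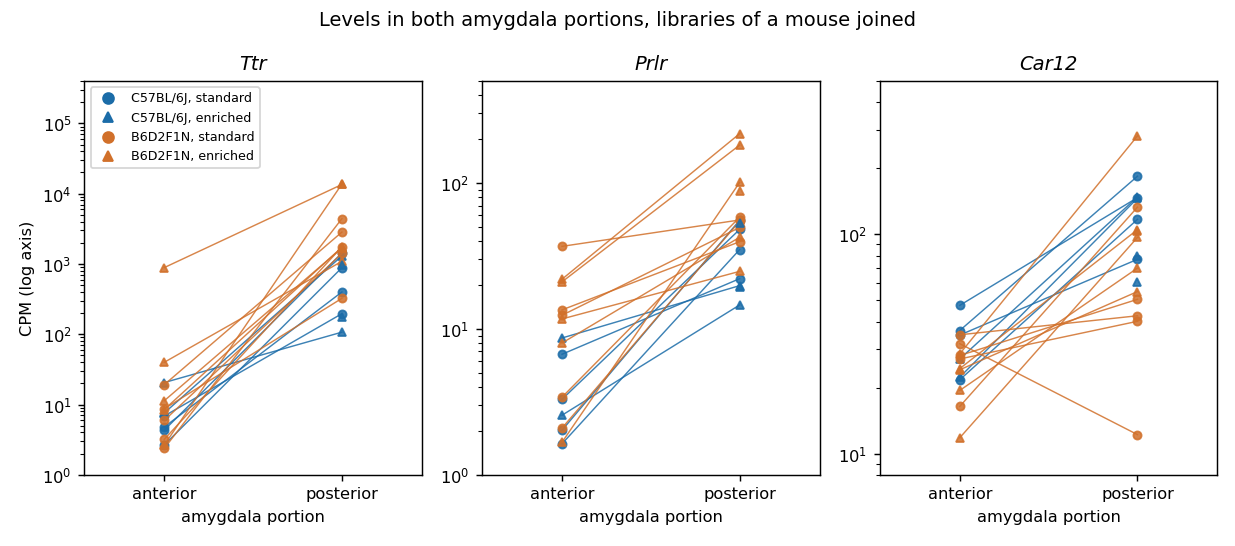
CPM (log axis) of Ttr, Prlr and Car12 in the anterior and posterior libraries, with 1 point per library, the libraries of a mouse joined by a line, the strain shown by colour and the housing by symbol. Ttr was higher in the posterior library of 16 of 16 mice, Prlr in 16 of 16 and Car12 in 15 of 16, and the anterior point of 886 CPM of Ttr belongs to mouse 21BL.

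Among the 36 genes, 12 rose in the posterior portion of C57BL/6J mice and none fell, and 25 rose in B6D2F1N mice and none fell. Of the 36 genes, 35 were tested in C57BL/6J mice, since Mfrp had too few reads, and their median log2 fold change was 2.42, against 0.0134 over all 25751 genes tested. The median was also 2.42 with Krt8, which had no read in the anterior libraries of this strain, set to its lower bound. Of all genes, 3.64% were called in this strain and 1.54% were higher in the posterior portion. In B6D2F1N mice the median of the 36 genes was 3.44, against 0.148 over 27761 genes, of which 4% were called and 1.62% were higher. Without mice 21BL and 23BLR, 18 of 35 genes rose in B6D2F1N mice, against 0.878% of all genes, and none fell. At an unadjusted p under 0.05 there were 21 of the 35 and 29 of the 36, against 3488 of 25751 and 4312 of 27761 over all genes. With DESeq2 there were 17 and 28, of which all 28 of B6D2F1N were higher while the 17 of C57BL/6J included Ace and Col8a1, which were lower, and did not include Krt8. Beyond the edgeR calls, DESeq2 also called Kcnj13, Calml4, Kcne2 and Trpv4 in C57BL/6J and Sostdc1, Enpp2 and Abca4 in B6D2F1N mice. Portion calls of single genes given below are those of edgeR.

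The strains shared 11 of the genes called in edgeR, which is 91.7% of the 12 of C57BL/6J and 44% of the 25 of B6D2F1N. They were Ttr, Folr1, Kl, Aqp1, Prlr, Krt8, Krt18, Cldn2, Car12, Tmem72 and Lbp. Of these, 10, all but Car12, were also called in B6D2F1N without mice 21BL and 23BLR. The same share over all called genes is not given here, so whether these percentages are high cannot be told. Sostdc1 was called in C57BL/6J mice and missed the threshold in B6D2F1N. The change between portions did not differ between strains at the threshold for any of the 36 genes, where 0 of 29437 genes (0%) passed the test of the interaction in edgeR and none of the 36 in DESeq2. At an unadjusted p under 0.05 the interaction gave 6 of the 36, against 871 of the 29437 genes. They were F5, Col8a1, Kcne2, Slc4a5, Enpp2 and Krt18, all with a larger value in B6D2F1N.

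**Figure D2:**
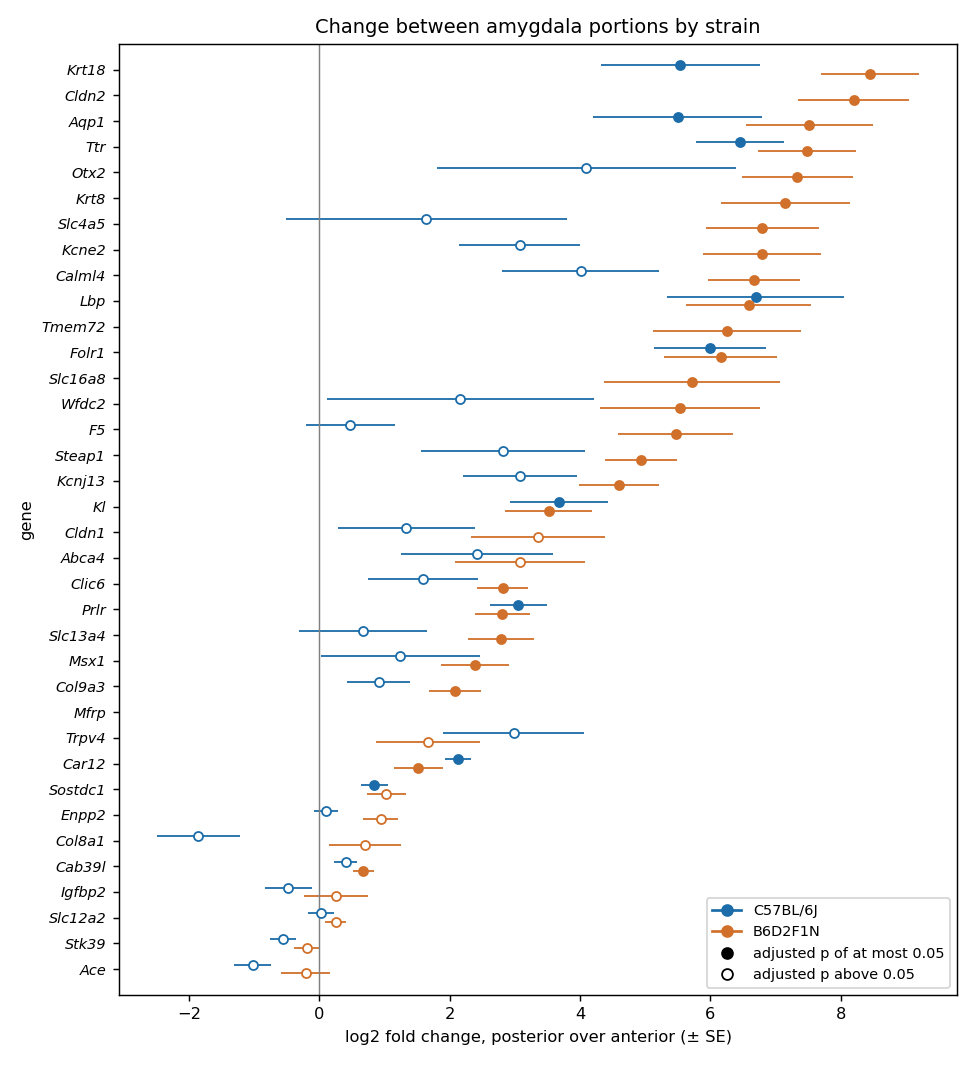
Log2 fold change of the posterior over the anterior portion (± SE) for each gene in C57BL/6J (blue, 6 mice) and B6D2F1N mice (orange, 10 mice), filled where the adjusted p was at most 0.05. No change is drawn where a strain held 3 or fewer reads of the gene in its anterior libraries. Filled points lie at positive values in both strains, and Slc12a2, Stk39, Igfbp2 and Ace lie near or below 0.

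The other defining genes of the epithelium followed Ttr in direction. Folr1, the folate receptor that carries folate into cerebrospinal fluid, was found at 0 to 1.1 CPM (median 0.0463) in anterior and 2.26 to 40.7 CPM (median 8.41) in posterior libraries of C57BL/6J mice, without overlap. In B6D2F1N mice it was found at 0 to 23.2 CPM (median 0) and 6.18 to 238 CPM (median 16.1). The anterior level of 23.2 CPM was that of mouse 21BL, and without this mouse and 23BLR the portions did not overlap. Folr1 rose by a log2 fold change of 5.99 (SE 0.863, adjusted p = 0.000364) in C57BL/6J and 6.16 (SE 0.87, adjusted p = 0.000376) in B6D2F1N mice. Kl, which encodes klotho, a co-receptor of fibroblast growth factor 23, was found at 0 to 1.25 CPM (median 0.669) in the anterior and 3.67 to 11.7 CPM (median 6.26) in the posterior libraries of C57BL/6J mice, and at 0 to 11.1 (median 2.26) and 4.99 to 155 CPM (median 22.9) in B6D2F1N mice. The portions of C57BL/6J mice did not overlap in Kl, and the gene rose by 3.68 (SE 0.753, adjusted p = 0.00713) and 3.52 (SE 0.665, adjusted p = 0.00416) in the strains.

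Clic6, a chloride channel of the intracellular family, and Kcnj13, the inward rectifier Kir7.1 of the apical membrane, were called in B6D2F1N mice. Clic6 was found at 0.579 to 8.89 CPM (median 2.58) and 5.75 to 55.1 CPM (median 18) in the anterior and posterior libraries of this strain and rose by 2.81 (SE 0.391, adjusted p = 0.000324), higher in 10 of 10 mice. Kcnj13 was found at 0 to 10.2 CPM (median 0.627) and 2.28 to 177 CPM (median 10.9) and rose by 4.6 (SE 0.617, adjusted p = 0.000249). The levels overlapped in C57BL/6J mice, at 0 to 5.25 against 1.26 to 15.4 CPM for Clic6 and 0.23 to 1.53 against 0.479 to 19.1 CPM for Kcnj13, with adjusted p-values of 0.449 and 0.0613. Kcnj13 shares its locus with Gigyf2 on the opposite strand, and Folr1 with Anapc15. The strand setting of the counting is not given in the sources used here, so that reads in such overlaps cannot be assigned with certainty for the 15 of the 36 genes that have an overlapping gene.

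Among the genes of salt and water transport, Aqp1 rose in both strains, Kcne2, Slc4a5, Slc13a4 and Slc16a8 were called in B6D2F1N mice, and Trpv4 and Slc12a2 were called in neither. Aqp1, the apical water channel, was at 0 in 13 of 16 anterior libraries. It was found at 0.87 to 4.22 CPM (median 2.32) in the posterior libraries of C57BL/6J mice, against 0 to 1.6 CPM in the anterior ones, and at 0 to 62.1 CPM (median 2.7) against 0 to 6.79 CPM in B6D2F1N mice. It rose by 5.5 (SE 1.3, adjusted p = 0.0208) and 7.52 (SE 0.976, adjusted p = 0.000237), and in B6D2F1N mice 6.79 CPM of mouse 21BL was the only anterior level above 0.

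Kcne2, a subunit of potassium channels, was found at 0 to 4.15 CPM (median 0) in the anterior and 1.05 to 67.2 CPM (median 7.97) in the posterior libraries of B6D2F1N mice and rose by 6.79 (SE 0.898, adjusted p = 0.000218). C57BL/6J mice held Kcne2 at 0 to 1.42 and 0.522 to 8.05 CPM, higher in 5 of the 6, with an adjusted p of 0.0845. Slc4a5, a sodium bicarbonate cotransporter, rose by 6.8 (SE 0.861, adjusted p = 0.000138) in B6D2F1N mice, from 0 to 1.72 CPM (median 0) to 0.108 to 30.5 CPM (median 1.86). It was higher in 10 of 10 B6D2F1N but 2 of 6 C57BL/6J mice, where the posterior libraries held 0 to 1.91 CPM.

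Slc13a4, a sodium sulfate cotransporter, rose by 2.79 (SE 0.51, adjusted p = 0.00323) in B6D2F1N mice, from 0.0575 to 4.36 CPM (median 2.13) to 3.18 to 69.9 CPM (median 7.35), and Slc16a8, a monocarboxylate transporter, by 5.72 (SE 1.35, adjusted p = 0.0201), from 0 to 0.194 CPM (6 reads in all) to 0 to 11.7 CPM (median 0.48). Both calls were lost without mice 21BL and 23BLR, where the values were 2.49 (SE 0.669, adjusted p = 0.0646) and 4.57 (SE 1.74, adjusted p = 0.24). The corresponding levels in C57BL/6J mice were 0.168 to 6.67 and 0 to 13.3 CPM for Slc13a4 and 0 to 0.0576 and 0 to 1.37 CPM for Slc16a8. Trpv4, a cation channel that responds to osmotic stimuli, was called in neither strain, at 0 to 2.13 CPM in all anterior libraries and 0.0542 to 36.4 CPM in the posterior ones.

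Carbonic anhydrase XII (Car12), a membrane enzyme that supplies bicarbonate, differed from these genes in having a level of 11.8 to 47.4 CPM (median 27) in all anterior libraries. It was found at 21.7 to 47.4 CPM (median 30.8) against 76.9 to 184 CPM (median 147) in C57BL/6J mice, without overlap, and rose by 2.12 (SE 0.203, adjusted p = 5.09e-06). In B6D2F1N mice the levels were 11.8 to 34.8 (median 25.7) and 12.2 to 281 CPM (median 62.5), with a rise of 1.52 (SE 0.371, adjusted p = 0.0234) that did not pass without mice 21BL and 23BLR (1.21, SE 0.39, adjusted p = 0.138). The posterior library of mouse 11CR, with 12.2 CPM, was the only one below its anterior partner.

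The prolactin receptor (Prlr) also had reads in all libraries. It was found at 1.63 to 8.66 CPM (median 2.92) in the anterior and 14.6 to 55.6 CPM (median 28.5) in the posterior libraries of C57BL/6J mice, without overlap, and at 1.67 to 36.8 CPM (median 12) and 24.8 to 218 CPM (median 55.3) in B6D2F1N mice. It rose by 3.06 (SE 0.433, adjusted p = 0.000311) and 2.81 (SE 0.421, adjusted p = 0.000681), and by 2.69 (SE 0.507, adjusted p = 0.00871) in B6D2F1N without the 2 mice. The annotation places Gm21973 on the same strand over part of this gene.

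The keratins Krt8 and Krt18, which pair to form the filaments of simple epithelia, lie 23.7 kb apart on chromosome 15. Krt8 was at 0 in 15 and Krt18 in 13 of the 16 anterior libraries. In the posterior libraries Krt8 was found at 0 to 6.69 CPM (median 0.77) in C57BL/6J and 0 to 9.95 CPM (median 2.02) in B6D2F1N mice, and Krt18 at 0.783 to 10.1 CPM (median 3.8) and 1.06 to 34.3 CPM (median 8.49). Krt8 had no read in the anterior libraries of C57BL/6J mice, and its mean posterior level in the same mice was at least 13.8-fold higher than a floor of 3 reads per library (adjusted p = 0.0085). In B6D2F1N mice it rose by 7.15 (SE 0.988, adjusted p = 0.000386), where mouse 21BL gave the only anterior level above 0, of 1.01 CPM. Krt18 rose by 5.54 (SE 1.22, adjusted p = 0.0123) in C57BL/6J mice, whose portions did not overlap, and by 8.45 (SE 0.756, adjusted p = 1.51e-05) in B6D2F1N mice.

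The tight junction gene Cldn2, which encodes the cation pore claudin of leaky epithelia, was at 0 in 14 of 16 anterior libraries. It was found at 0 to 7.04 CPM (median 3.31) in the posterior libraries of C57BL/6J mice, where the anterior libraries held 1 read in all (adjusted p = 0.000477), and at 0.894 to 77.9 CPM (median 5.51) in B6D2F1N mice, against 0 to 4.3 CPM in the anterior ones, with a rise of 8.2 (SE 0.844, adjusted p = 3.32e-05). The only posterior library without a read of Cldn2 was that of the C57BL/6J mouse 13DR. Cldn1, a sealing claudin, was called in neither strain, at 0 to 5.84 CPM (median 1.23) in all anterior and 0.174 to 21.2 CPM (median 5.82) in all posterior libraries.

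The promoters of the 2 keratins are shown because the genes are neighbours and rose together, on opposite strands, in the posterior libraries. Both were taken from RefSeq annotation on GRCm38.p6 and run 5′ to 3′ from 250 bases before to 50 bases after the start of transcription, Krt8 at chr15:102004293-102004592 (minus strand) and Krt18 at chr15:102027966-102028265 (plus strand).
Krt8: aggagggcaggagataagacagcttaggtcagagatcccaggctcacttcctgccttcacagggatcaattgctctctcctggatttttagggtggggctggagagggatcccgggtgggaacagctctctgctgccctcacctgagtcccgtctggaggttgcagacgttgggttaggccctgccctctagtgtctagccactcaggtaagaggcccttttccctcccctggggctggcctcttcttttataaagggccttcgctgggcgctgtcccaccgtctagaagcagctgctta
Krt18: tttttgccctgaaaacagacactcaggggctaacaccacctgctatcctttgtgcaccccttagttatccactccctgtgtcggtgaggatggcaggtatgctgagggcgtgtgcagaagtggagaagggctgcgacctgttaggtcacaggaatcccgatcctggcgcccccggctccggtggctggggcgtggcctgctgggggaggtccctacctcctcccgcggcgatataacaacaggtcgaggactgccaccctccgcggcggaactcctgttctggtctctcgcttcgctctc

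Kcne2 and Clic6 are the other pair of neighbours, 188 kb apart on chromosome 16 and both on the plus strand. The promoter of Kcne2, which of the 36 genes had the highest correlation with Ttr across the posterior libraries, is shown from its first annotated start at chr16:92292139-92292438 (plus strand, GRCm38.p6, RefSeq), and one of the promoters of Otx2 at chr14:48665060-48665359 (minus strand), which holds in capitals the motif described next.
Kcne2: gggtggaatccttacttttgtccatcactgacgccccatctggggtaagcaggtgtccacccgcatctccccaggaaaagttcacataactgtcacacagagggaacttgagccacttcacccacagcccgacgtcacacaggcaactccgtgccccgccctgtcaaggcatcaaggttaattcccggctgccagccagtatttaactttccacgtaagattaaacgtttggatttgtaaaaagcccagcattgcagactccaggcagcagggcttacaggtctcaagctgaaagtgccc
Otx2: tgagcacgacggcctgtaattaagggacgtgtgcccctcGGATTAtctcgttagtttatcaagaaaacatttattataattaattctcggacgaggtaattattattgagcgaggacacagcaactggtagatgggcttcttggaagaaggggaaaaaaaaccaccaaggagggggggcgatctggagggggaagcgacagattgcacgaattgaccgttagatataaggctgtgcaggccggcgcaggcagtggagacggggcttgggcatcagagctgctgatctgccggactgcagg

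The motif GGATTA, or TAATCC on the other strand, is the core recognised by homeodomain factors of the OTX and CRX type. RefSeq promoters were found for 28 of the 36 genes, with 38 starts. A match lay in 4 of the 38 promoters (10.5%), those of Otx2, Abca4, Ace and Mfrp, against 7.06% of all 32851 promoters of this length. None of the promoters printed for the keratins and Kcne2 held these letters in this window.

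The transcription factors of the group had low levels. Otx2, a homeodomain factor of choroid plexus development, was at 0 in 12 of 16 anterior libraries. In B6D2F1N mice it was found at 0 to 1.37 CPM (median 0) and 0.813 to 16.1 CPM (median 3.79) and rose by 7.34 (SE 0.848, adjusted p = 5.67e-05). The posterior libraries of C57BL/6J mice held 0.0435 to 3.3 CPM (median 1.22) and the anterior ones 0 to 3.2 CPM, where 3.2 CPM was the level of mouse 13DR, and the adjusted p was 0.498. Otx2 overlaps the antisense RNA gene Otx2os1. Msx1, a homeobox repressor, rose by 2.39 (SE 0.522, adjusted p = 0.0114) in B6D2F1N mice, from 0.173 to 3.96 CPM (median 0.772) to 0.879 to 17.5 CPM (median 4.6), a call that was lost without mice 21BL and 23BLR at a value of 2.05 (SE 0.63, adjusted p = 0.115). C57BL/6J mice held Msx1 at 0.1 to 3.09 and 0.139 to 16.2 CPM.

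Among the secreted and other proteins, Lbp, the lipopolysaccharide binding protein, and Tmem72, a membrane protein, rose in both strains. Lbp was found at 0 to 1.95 CPM (median 0) and 0.558 to 25.6 CPM (median 2.2) in C57BL/6J and at 0 to 7.19 CPM (median 0) and 0 to 68.9 CPM (median 5.07) in B6D2F1N mice, and rose by 6.7 (SE 1.36, adjusted p = 0.00665) and 6.59 (SE 0.955, adjusted p = 0.000599). Tmem72 held 3 reads in all in the anterior libraries of C57BL/6J mice against 0 to 9.18 CPM (median 0.765) in the posterior ones (adjusted p = 0.00352), and rose in B6D2F1N mice by 6.25 (SE 1.14, adjusted p = 0.00315), from 0 to 5.77 CPM to 0.0559 to 48.5 CPM. Both had their highest anterior level in mouse 21BL.

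Calml4, a calmodulin-like protein, was found at 0 to 0.709 CPM (median 0) and 1.7 to 25.8 CPM (median 6.12) in B6D2F1N mice and rose by 6.68 (SE 0.705, adjusted p = 3.77e-05). It was the only gene called in this strain whose portions did not overlap with all 10 mice. In C57BL/6J mice it was higher in 6 of 6 mice, at 0 to 1.23 against 0.435 to 7.98 CPM, with an adjusted p of 0.0804. F5, coagulation factor V, rose in B6D2F1N mice by 5.47 (SE 0.887, adjusted p = 0.00136), from 0 to 6.99 CPM (median 0) to 1.73 to 69 CPM (median 5.53), and was higher in 10 of 10 of these mice but in 3 of 6 C57BL/6J mice, at 0.288 to 8.7 against 0.325 to 11.5 CPM.

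Steap1, of a family of metalloreductases, rose by 4.94 (SE 0.555, adjusted p = 4.65e-05) in B6D2F1N mice, from 0 to 6.48 CPM (median 0.22) to 1.39 to 63.5 CPM (median 3.93). Wfdc2, a secreted protein with whey acidic protein domains, rose by 5.53 (SE 1.23, adjusted p = 0.0124), from 0 to 0.861 CPM to 0 to 13.9 CPM (median 0.866), and Col9a3, a collagen chain, by 2.09 (SE 0.395, adjusted p = 0.00424), from 0.699 to 9.93 CPM (median 4.65) to 4.34 to 107 CPM (median 13.5). Without mice 21BL and 23BLR, Steap1 remained called (adjusted p = 0.0021), and Wfdc2 and Col9a3 did not, at values of 5.80 (SE 1.63, adjusted p = 0.0772) and 1.68 (SE 0.437, adjusted p = 0.0553). The 3 genes had adjusted p-values of 0.321, 0.751 and 0.456 in C57BL/6J mice. Abca4 (0 to 2.76 and 0 to 16.8 CPM in all anterior and posterior libraries), Col8a1 (0.311 to 9.59 and 0.039 to 52.4 CPM) and Mfrp (0 to 0.152 and 0 to 1.76 CPM) were called in neither strain. Mfrp had no read in 15 anterior and 13 posterior libraries, and it overlaps C1qtnf5 on the same strand.

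**Figure D3:**
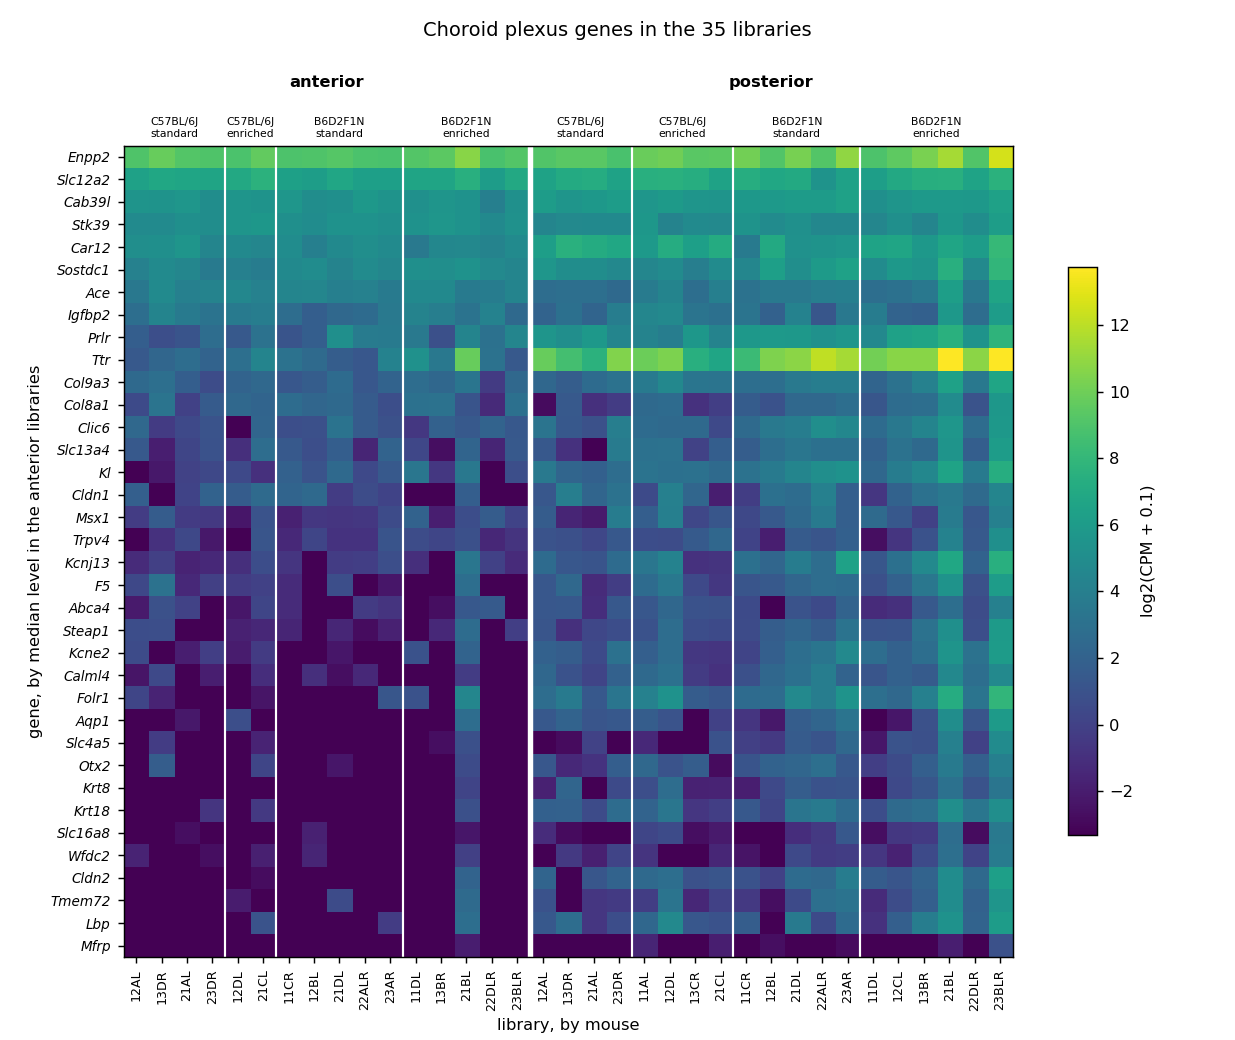
Level of the 36 genes, as log2(CPM + 0.1), in the 35 libraries, ordered by portion, strain and housing (columns) and by the median anterior level (lines). The 9 uppermost genes had at least 1 CPM in every library, as did Ttr, whereas the lower 12, from Aqp1 and Folr1 to Mfrp, were at 0 in at least 10 of the 16 anterior libraries, and mouse 21BL stands out in both portions.

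Besides Ttr, 9 of the 36 genes had at least 1 CPM in every library: Enpp2, Slc12a2, Cab39l, Stk39, Car12, Sostdc1, Ace, Igfbp2 and Prlr. Per kilobase of exon, the order of the median anterior levels was Enpp2 with 95.7 CPM per kb, Sostdc1 with 13.6, Slc12a2 with 9.2, Stk39 with 7.58, Cab39l with 6.41 and Ttr with 6.08. The anterior ranges of the 4 genes from Slc12a2 to Ttr overlapped. In the posterior libraries Ttr came first with 1180 CPM per kb and Enpp2 second with 118, followed by Sostdc1 with 18.5, Car12 with 12.7 and Slc12a2 with 12. At the other end, 20 of the 36 genes had an anterior median under 1 CPM and 4 a posterior median under 1 CPM.

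The sodium potassium chloride cotransporter NKCC1 (Slc12a2), its activating kinase SPAK (Stk39) and Cab39l, a scaffold protein of this kinase family, had overlapping levels in the portions over all libraries. Slc12a2 was found at 67.7 to 200 CPM (median 100) in the anterior and 43.2 to 187 CPM (median 132) in the posterior libraries, with log2 fold changes of 0.03 (SE 0.199) and 0.25 (SE 0.161) in C57BL/6J and B6D2F1N mice. Stk39 was found at 27.2 to 53.3 CPM (median 37.5) and 20.2 to 71.6 CPM (median 27.9). It was lower in the posterior library of 6 of 6 C57BL/6J mice, whose portions did not overlap, with a log2 fold change of -0.56 (SE 0.198) that missed the threshold over all genes (adjusted p = 0.161). In B6D2F1N mice the value was -0.19 (SE 0.19). Cab39l was found at 16.7 to 55.4 CPM (median 43.9) and 36.8 to 85.5 CPM (median 56.3). It rose by 0.67 (SE 0.161, adjusted p = 0.0212) in B6D2F1N mice and had a value of 0.41 (SE 0.176, adjusted p = 0.3) in C57BL/6J mice, higher in 15 of 16 mice. Without mice 21BL and 23BLR the call was lost at nearly the same size (0.64, SE 0.185, adjusted p = 0.085).

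Enpp2, which makes lysophosphatidic acid, had the highest level of the group in the anterior libraries. It was found at 449 to 1650 CPM (median 553) in the anterior and 469 to 6320 CPM (median 684) in the posterior libraries. The log2 fold changes were 0.11 (SE 0.184) in C57BL/6J and 0.94 (SE 0.271, adjusted p = 0.0601) in B6D2F1N mice. The highest anterior value, 1650 CPM, belonged to mouse 21BL, and the highest posterior values, 6320 and 2820 CPM, to mice 23BLR and 21BL. The anterior library of mouse 21BL also held the highest summed oligodendrocyte level, 31200 CPM against 4850 CPM in the lowest anterior library, and in the posterior libraries of mice 21BL and 23BLR this sum was 11800 and 10900 CPM, inside the range of the other posterior libraries (2320 to 27900 CPM). The part of oligodendrocytes in the Enpp2 level was not tested.

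Sostdc1, a secreted antagonist of BMP and Wnt signals, was found at 12.8 to 29.2 CPM (median 17.6) and 25.4 to 49.5 CPM (median 31.5) in C57BL/6J mice and rose by 0.84 (SE 0.207, adjusted p = 0.0268), higher in 6 of 6 mice. In B6D2F1N mice it was found at 19.4 to 41.5 (median 28.8) and 22.2 to 239 CPM (median 53.1), with a value of 1.03 (SE 0.3, adjusted p = 0.0649). Ace, the angiotensin converting enzyme, was found at 11.1 to 28.4 CPM (median 19.1) in the anterior and 5.53 to 98.6 CPM (median 11.1) in the posterior libraries. It was lower in the posterior library of 6 of 6 C57BL/6J mice, with a value of -1.03 (SE 0.287, adjusted p = 0.0578), and of 7 of 10 B6D2F1N mice. In C57BL/6J mice it was called as lower without mouse 21CL or 12DL. Igfbp2, a carrier of insulin-like growth factors, was found at 3.35 to 20.4 CPM (median 10.5) and 2.26 to 69.3 CPM (median 9.19) and was higher in 7 of 16 mice. The posterior levels of 98.6 CPM of Ace and 69.3 CPM of Igfbp2 belonged to mouse 23BLR and those next in order, 75.5 and 54.1 CPM, to mouse 21BL.

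Whether a gene followed Ttr was tested over the 19 posterior libraries with the log2 level of Ttr as a variable beside a term for each group of strain and housing, so that the slope describes libraries of the same group. All 35 genes had a slope above 0, and 14 of them were called, of 29 genes called in all. Over the 27870 genes tested, 0.104% were called and 0.0933% with a positive slope, and the median slope was 0.73 for the 35 genes against -0.00159 over all genes. The 14 genes were Folr1, Kl, Clic6, Kcnj13, Krt18, Calml4, F5, Kcne2, Slc13a4, Slc16a8, Tmem72, Msx1, Col9a3 and Steap1, and all of them had also risen in the posterior portion of B6D2F1N mice. A slope of 1 stands for a level in proportion to Ttr. The slopes were 0.99 (SE 0.0995, adjusted p = 9.51e-06) for Kcne2, 0.9 (SE 0.1, adjusted p = 4.6e-05) for Calml4, 1.04 (SE 0.134, adjusted p = 0.000486) for Folr1, 0.81 (SE 0.124, adjusted p = 0.00341) for Krt18, 0.69 (SE 0.1, adjusted p = 0.00201) for Clic6 and 0.65 (SE 0.113, adjusted p = 0.0162) for Kl.

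The number of genes called rested on few libraries. Without mice 21BL and 23BLR, 2 of 35 genes were called, Kcne2 with a slope of 1.0 (SE 0.156, adjusted p = 0.0209) and Calml4 with 0.93 (SE 0.151, adjusted p = 0.0312), where 0.011% of 27311 genes were called with a positive slope. In these 17 libraries 30 of 35 slopes were above 0, with a median of 0.51. Leaving out 1 mouse at a time gave between 6 and 15 called genes, 6 without 21BL, 23BLR, 12CL or 22DLR. The slopes of Kcnj13 (1.1 with and 1.01 without the 2 mice), Krt18 (0.81 and 0.81), Clic6 (0.69 and 0.67) and Msx1 (0.87 and 0.96) were of similar size, while those of Col9a3 (0.57 and 0.3), Kl (0.65 and 0.39), Ace (0.47 and 0.12), Sostdc1 (0.41 and 0.16), Enpp2 (0.34 and 0.04) and Trpv4 (0.65 and 0.06) were smaller without them.

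**Figure D4:**
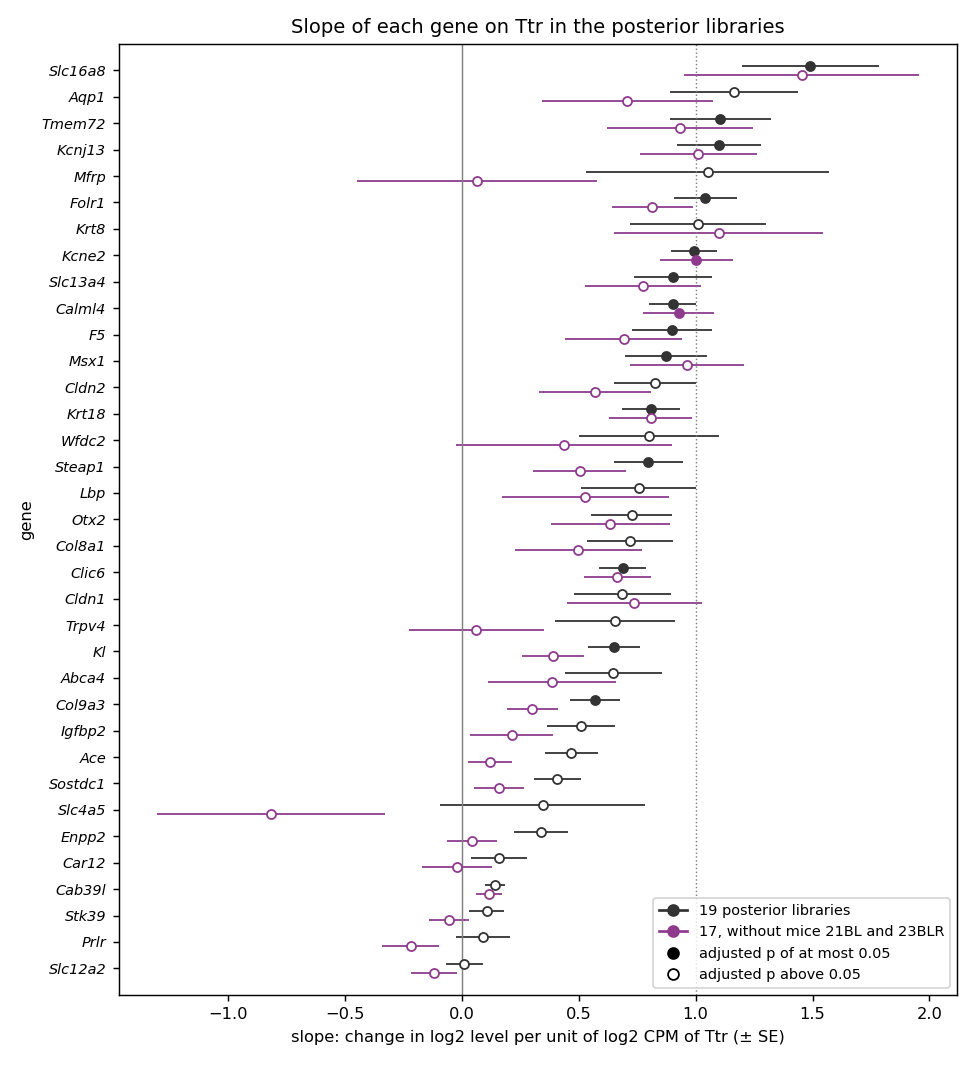
Slope of the log2 level of each gene on the log2 CPM of Ttr (± SE) in the 19 posterior libraries (black) and in the 17 without mice 21BL and 23BLR (purple), filled where the adjusted p was at most 0.05. The dotted line at 1 marks a level in proportion to Ttr, and Kcne2 and Calml4 are filled in both sets, while Slc12a2, Prlr, Stk39, Cab39l and Car12 have slopes of 0.01 to 0.16 in the 19 libraries.

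Car12 and Prlr rose in the posterior portion of both strains, but their slopes on Ttr were 0.16 (SE 0.121) and 0.09 (SE 0.117). Without mice 21BL and 23BLR these were -0.02 (SE 0.15) and -0.22 (SE 0.122). Both genes were thus higher in posterior libraries, while neither was called in the slope on Ttr among them. The posterior libraries of mice 21BL and 23BLR, with the most Ttr, held 182 and 218 CPM of Prlr, against at most 101 CPM in the other posterior libraries. For Car12 they held 105 and 281 CPM, against at most 184 CPM in the others. The C57BL/6J mouse 21CL, with the lowest posterior level of Ttr, 107 CPM, held 146 CPM of Car12, and mouse 22ALR, with 4410 CPM of Ttr, held 42.5 CPM. For Prlr the same libraries held 19.8 and 39.6 CPM. The slopes of Slc12a2 (0.01, SE 0.0796) and Stk39 (0.11, SE 0.0749) were within 2 SE of 0. That of Cab39l was 0.14 (SE 0.0439, adjusted p = 0.424), with r = 0.58 and rho = 0.65 (permutation p = 0.0086 and 0.00381) and r = 0.42 without the 2 libraries farthest in Ttr and 0.5 without mice 21BL and 23BLR. None of the 9 genes present in every library beside Ttr was called in the slope test by edgeR. Sostdc1 and Ace were called by DESeq2 and without mouse 21CL, and Sostdc1, Enpp2 and Ace without strain and housing terms.

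**Figure D5:**
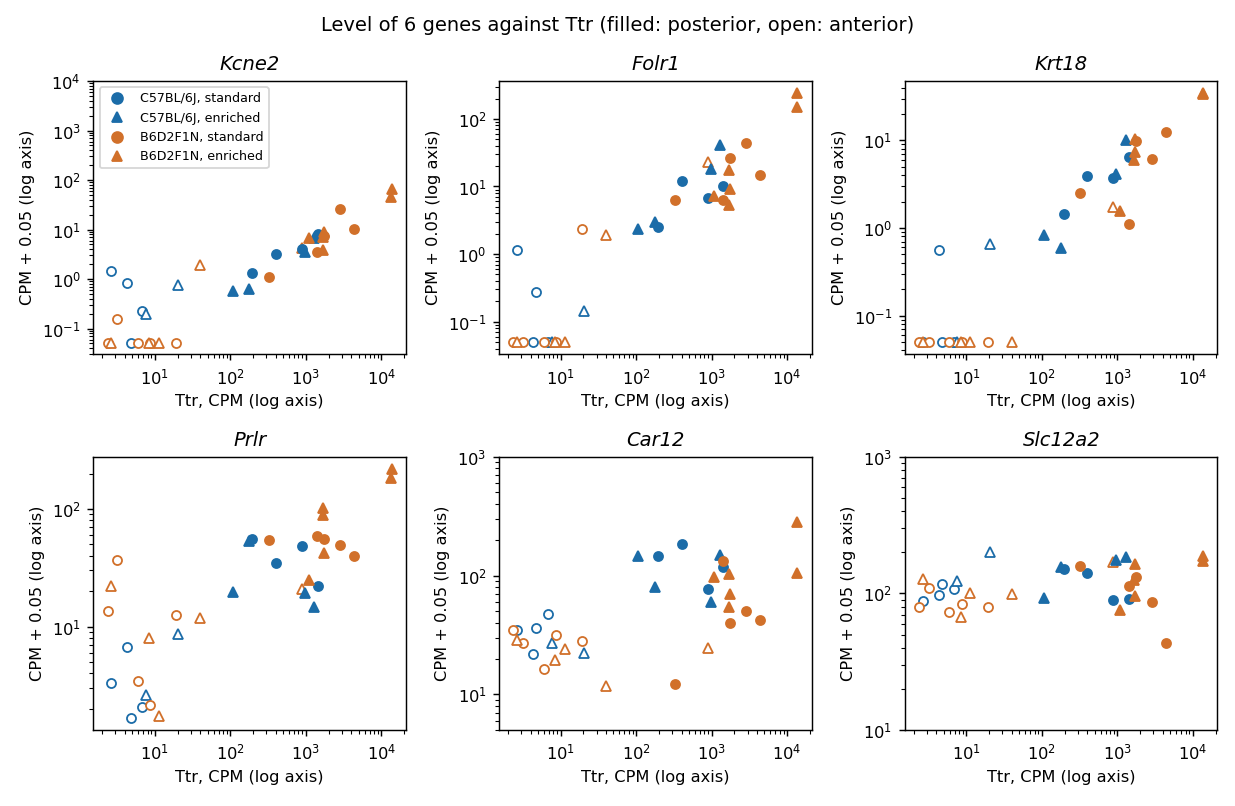
Level of 6 genes (CPM + 0.05, log axis) against that of Ttr (CPM, log axis) in the 35 libraries, posterior filled and anterior open, with strain by colour and housing by symbol. Kcne2, Folr1 and Krt18 increase along Ttr in the filled points, and Slc12a2 stays between 43.2 and 200 CPM. Prlr and Car12 are raised in most filled points and were not called in the slope on Ttr, though both are highest in mouse 23BLR.

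The levels of 35 genes were also correlated with that of Ttr over the 19 posterior libraries. For Kcne2, Pearson's r was 0.95 and Spearman's rho 0.94 (permutation p = 1e-05 each, the smallest that 100000 resamples can give), and r was 0.93 without the 2 libraries farthest from the median of Ttr and 0.92 without mice 21BL and 23BLR. For Clic6, r and rho were both 0.92 (permutation p = 1e-05 each), with r = 0.87 without the 2 farthest libraries. For Car12 they were 0.08 and -0.18 (permutation p = 0.729 and 0.461) and for Slc12a2 -0.04 and 0 (permutation p = 0.869 and 1), with r = -0.02 and -0.31 without the 2 farthest. For Prlr, r was 0.54 and rho 0.44 (permutation p = 0.0179 and 0.0591), and r was 0.3 without the 2 farthest libraries and 0.14 without mice 21BL and 23BLR, so that the relation rested on these libraries. There were 35 such relations in each portion, their p-values are two-sided and not adjusted, and the slope test above gives the adjustment over all genes.

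In the 16 anterior libraries no gene of the 33 tested followed Ttr at the threshold, and of all 26352 genes 0% were called. At an unadjusted p under 0.05 edgeR gave 15 of the 33, against 1969 of the 26352 genes, and DESeq2 called none of the 33 at the adjusted threshold. For Folr1, r was 0.78 and rho 0.48 (permutation p = 0.00314 and 0.06), and r fell to 0.21 without the libraries of mice 21BL and 11DL, the farthest in Ttr. The 21BL anterior library held Folr1 at 2.62% and Kl at 1.25% of the CPM of Ttr, against 1.12 and 0.695% in the posterior library of the same mouse and 1.74 and 1.14% in that of mouse 23BLR. Over all posterior libraries these ratios ranged from 0.315 to 3.12% for Folr1 and from 0.459 to 5.44% for Kl.

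Ranked by Spearman's rho with Ttr over all 35 libraries among 16021 other genes with a mean of at least 1 CPM, the 5 genes most like it were 1500015O10Rik with 0.931, Krt18 with 0.926, Folr1 with 0.902, Kcne2 with 0.892 and Cldn2 with 0.892. The first is not one of the 36 genes. Within the 19 posterior libraries the rho of these genes was 0.904, 0.868, 0.763, 0.94 and 0.735. These values are a description, since the anterior and posterior libraries form separate groups and share their mice. Of the 36 genes 32 could be ranked, 8 of these stood among the first 20 and 17 among the first 100. The first 20 also held Rsph1 (0.862) and Ccdc153 (0.841), which are used below as markers of ependymal cells, so that likeness to Ttr was not particular to the 36 genes. At the other end of the 32 genes were Ace (-0.273), Stk39 (-0.165), Igfbp2 (0.139) and Col8a1 (0.167). Within the 19 posterior libraries the rho of these 4 genes was 0.516, 0.216, 0.184 and 0.705. Without mice 21BL and 23BLR it was 0.32, -0.1, -0.14 and 0.59. Col8a1 thus had a higher rho with Ttr among the posterior libraries than over all 35. It was not called in the slope test by edgeR, with or without mice 21BL and 23BLR. DESeq2 called it, as did edgeR without strain and housing terms.

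Markers of ependymal cells moved in the same direction. The summed level of 6 such markers (Foxj1, Ccdc153, Tmem212, Rsph1, Dynlrb2, Cfap126) was 1.83 to 32.2 CPM (median 6.19) in the anterior and 8.6 to 185 CPM (median 37.5) in the posterior libraries, with the highest anterior value in mouse 21BL. All but Rsph1 were at 0 in at least 1 library. Tmem212 and Ccdc153 rose in both strains, by 7.4 (SE 0.542) and 4.27 (SE 0.688) in C57BL/6J and by 6.62 (SE 0.766) and 6.22 (SE 0.73) in B6D2F1N mice, with 2 and 5 of the 6 called, and 5 without mice 21BL and 23BLR. On Ttr, 1 of the 6 was called in the posterior libraries, Rsph1 with a slope of 0.49 (SE 0.0678), and none without the 2 mice. The part of ependymal cells in the levels of the 36 genes was not tested.

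Markers of meningeal fibroblasts differed by gene. Their summed level was 35.2 to 94.2 CPM in the anterior and 48.8 to 1760 CPM in the posterior libraries, and Lum was at 0 in some libraries. Dcn was the 1 of 6 called in each strain, with log2 fold changes of 5.8 (SE 0.327) in C57BL/6J and 2.97 (SE 0.672) in B6D2F1N mice, and 2.44 (SE 0.706, adjusted p = 0.0887) in the latter without mice 21BL and 23BLR. Igf2 had a slope on Ttr of 0.62 (SE 0.11, adjusted p = 0.0197), and without mice 21BL and 23BLR none of the 6 was called on Ttr. Markers of excitatory neurons were lower in the posterior portion, 3 of 6 in each strain, with Tbr1 at -2.25 (SE 0.362) and -2.38 (SE 0.327) and a summed level of 1820 to 4460 CPM in the anterior and 927 to 5390 CPM in the posterior libraries. None of 6 endothelial, 6 oligodendrocyte, 3 inhibitory neuron and 6 microglial markers was called in either strain, where the lists' median changes lay between -0.41 and 0.18, and astrocyte markers gave 3 higher in C57BL/6J and 1 higher (Gfap) and 1 lower (Slc1a2) in B6D2F1N mice. Their part in the results was not tested.

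A further 26 genes known from choroid plexus transport, junctions and receptors were also counted. Of these, 3 rose in C57BL/6J mice and none fell, with a median log2 fold change of 0.21. Over all genes tested in this strain the median was 0.0134, and 3.64% were called. In B6D2F1N mice 4 of the 26 rose and 2 fell, with a median of 0.12. Over all genes tested in B6D2F1N mice the median was 0.148, and 4% were called. Cldn3, a sealing claudin, rose in C57BL/6J mice by 4.43 (SE 0.66, adjusted p = 0.000499). In B6D2F1N mice Cldn3 rose by 5.3 (SE 0.865, adjusted p = 0.00163) and Trpm3, a cation channel, by 1.76 (SE 0.292, adjusted p = 0.00163), and Lmx1a, a transcription factor of the roof plate, had an anterior median of 0 and a posterior median of 0.542 CPM over all mice. The bicarbonate transporter Slc4a10 fell by 0.55 on the log2 scale (SE 0.149, adjusted p = 0.0438) in the same strain. None of the 26 was called on Ttr in the posterior libraries.

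The strains were compared within each housing and portion. Ttr in the posterior libraries was at 196 to 1430 CPM (median 642) in standard and 107 to 1300 CPM (median 572) in enriched C57BL/6J mice, and at 324 to 4410 CPM (median 1750) and 1090 to 13700 CPM (median 1710) in standard and enriched B6D2F1N mice. None of the 36 genes was called between strains in any of the 4 comparisons in edgeR, where 0.37, 0.373, 0.0639 and 0.394% of all genes were called in standard anterior, standard posterior, enriched anterior and enriched posterior libraries. At an unadjusted p under 0.05 there were 7 of 30, 12 of 35, 1 of 34 and 17 of 36 genes tested, against 2187 of 24305, 2605 of 25171, 1016 of 23459 and 2336 of 25640 over all genes. DESeq2 called none in the anterior comparisons, Kl and Ace in standard posterior libraries and Clic6, Prlr and Wfdc2 in enriched posterior libraries, all higher in B6D2F1N mice, where it called 392 and 342 genes in all.

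In enriched posterior libraries 35 of 36 genes had a higher value in B6D2F1N mice, with a median log2 difference of 2.00, against 0.0284 over all genes. Ttr had a difference of 3.16 (SE 0.903, adjusted p = 0.27), and of 1.27 (SE 0.589, adjusted p = 0.53) without mice 21BL and 23BLR. Without them 14 of 35 genes were higher in B6D2F1N mice and the median was -0.15, so that the direction of the median rested on these 2 mice. In standard posterior libraries, which do not include them, 31 of 35 were higher in B6D2F1N mice with a median of 0.89, against 0.046 over all genes. Kl was found at 3.67 to 11.7 CPM in the C57BL/6J and 8.67 to 42.2 CPM in the B6D2F1N mice of this comparison, with a difference of 1.85 (SE 0.473, adjusted p = 0.189, edgeR).

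Housing was compared within each strain and portion. None of the 36 genes was called in edgeR, where 0, 0.0163, 0 and 0% of all genes were called in the anterior and posterior libraries of C57BL/6J and of B6D2F1N mice, and DESeq2 called none of the 36 either. At an unadjusted p under 0.05 there were 4 of 31, 3 of 35, 8 of 34 and 10 of 36 genes tested, against 1418 of 22865, 2515 of 24526, 1553 of 24639 and 1716 of 26028 over all genes. In the posterior libraries of B6D2F1N mice 35 of 36 genes had a higher value in enriched housing, with a median log2 difference of 1.40, against 0.0255 over all genes. Without mice 21BL and 23BLR 5 of 35 did, with a median of -0.51. In the anterior libraries of this strain Ttr was at 2.37 to 19.1 CPM in standard and 2.65 to 886 CPM in enriched housing. The strain and housing comparisons share the enriched B6D2F1N libraries. A p-value that misses the threshold does not show that the groups were alike, and the anterior comparisons with enriched C57BL/6J mice rest on 2 libraries of that group.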

How the data were processed

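RNA of laser-captured amygdala cells of 19 mice was sequenced by the authors. Per the labels, the tools were bcl2fastq, FastQC 0.11.7, Trimmomatic 0.38, HISAT2 2.1.0 (GRCm38), SAMtools 1.8 and HTSeq 0.11.2. The deposited values are read counts per Ensembl gene for 1 library each, not normalized, and the 5 HTSeq tallies of unassigned reads (no feature 13.7 to 26.4%, ambiguous 3.06 to 3.74%, not unique 6.23 to 10.9%) were left out. The counting annotation and strand setting are not given in the sources used here. Positions came from GENCODE M21, in which 52403 of 52636 gene identifiers were found, and no 2 libraries held identical counts.

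In R 4.3.3, genes with at least 10 counts over the libraries of a comparison were tested with edgeR 4.0.16 (TMM, quasi-likelihood, Benjamini-Hochberg over all genes, threshold 0.05), and DESeq2 1.42.0 was an alternative. CPM were scaled by TMM over 35 libraries, and log2 CPM had a prior count of 2. Portions were compared within strain with the mouse as a block. The mouse names in the labels pair the libraries. Deviations from group means correlated within a mouse across 16022 genes with a median r of 0.048 over 16 mice (range -0.105 to 0.222), and genes are not independent replicates. Levels by strain are those of mice with both portions. Slopes on Ttr had terms for strain and housing. Lower bounds used a floor of 3 counts per library, which, without molecular identifiers, covers counting error only. Correlations used 100000 resamples in Python 3.11.15 with scipy 1.17.1.

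The 36 genes, the lists and the tests were chosen with earlier results of these data known. Values are given for Ttr, for genes past the threshold in a portion or slope test and for genes with at least 1 CPM in every library, the others by range and count, with up to 2 genes by p per list and the 5 genes most like Ttr. Other list genes and single libraries named were chosen after their values were seen. Some genes of the lists are counted but not reported here by name. Alternatives were other size factors, filters, tools and blocks, leaving out each mouse, and, chosen after seeing the data, leaving out mice 21BL and 23BLR. The fits were tested on simulated data.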

Additional observations from a re-analysis of the deposited data

Results flagged for a closer look

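The libraries of each group of 4 to 10 were compared for a value far from all others of the group by Dixon's ratio on log2 CPM, for each gene in each group with a level of at least 1 CPM in some library. Of 217 such groups 21 had such a value, and 10 of them were the anterior library of mouse 21BL. Chance gives about 5% for continuous values. Where all other libraries are at 0 the ratio is 1 at any level, so the 5% does not hold for such groups. The 10 values come from 1 library and are not independent. In this library Aqp1 (6.79 CPM), Otx2 (1.37 CPM), Krt8 (1.01 CPM), Krt18 (1.67 CPM), F5 (6.99 CPM), Cldn1 (3.39 CPM), Cldn2 (4.3 CPM), Tmem72 (5.77 CPM) and Lbp (7.19 CPM) were above 0 while the other 4 enriched B6D2F1N anterior libraries were at 0, and Slc4a5 was at 1.72 CPM against at most 0.0575 CPM.

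In the same group Clic6 was lowest in mouse 11DL (0.579 CPM, others from 2.52 CPM), and mouse 22DLR was lowest in Col9a3 (0.699 CPM, others from 5.12 CPM) and Cab39l (16.7 CPM, others from 38.1 CPM). In standard B6D2F1N anterior libraries Folr1 in mouse 23AR (2.27 CPM) and Tmem72 in mouse 21DL (1.41 CPM) were above 0 while the others were at 0. In the C57BL/6J mouse 13DR, the anterior library held 3.2 CPM of Otx2 and 3.09 CPM of Msx1, against 0 and at most 0.731 CPM in the other standard mice, and the posterior library held 0 CPM of Cldn2 against at least 2.32 CPM. Abca4 was low in the posterior library of mouse 21AL (0.372 CPM, others from 2.34 CPM), Clic6 in that of mouse 21CL (1.26 CPM, others from 5.54 CPM), and Mfrp was high in that of mouse 23BLR (1.76 CPM, others up to 0.167 CPM). The causes of these values were not tested.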

How the results depend on the processing

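The counts of the 36 genes called between portions stayed within 1.5 times under all alternatives run, in both strains. Without the replicate block of the paired mice, 10 genes were called in C57BL/6J and 26 in B6D2F1N mice, against 12 and 25, and in C57BL/6J mice Aqp1, Sostdc1 and Lbp were then not called and Kcnj13 was. Without any minimum count 16 and 28 were called. Over all genes, DESeq2 called 1535 and 1994 between portions against 937 and 1110 by edgeR, and 631 were called in B6D2F1N without mice 21BL and 23BLR. Leaving out 1 mouse at a time gave 9 (without 21AL) to 14 (without 21CL) in C57BL/6J and 22 (without 23BLR) to 27 (without 11CR or 22DLR). Ace, lower in the posterior portion of C57BL/6J mice, was among those called without 21CL, without 12DL, with no minimum count and by DESeq2, which also called Col8a1, likewise lower. Counting each called gene under each setting, the call was lost in 15, 18 and 100 cases for the portion in C57BL/6J, the portion in B6D2F1N and the posterior slope on Ttr, and was kept with its direction in 117, 382 and 264. The slope on Ttr in posterior libraries depended on the setting. Of the 36 genes, edgeR called 14, against 22 by DESeq2 and 22 without strain and housing terms. There were 3 without the 2 libraries farthest in Ttr, 2 without mice 21BL and 23BLR, and 6 to 15 when 1 mouse was left out. Over all genes, Ttr not left out, edgeR called 30, DESeq2 173, and 187 were called without strain and housing terms. Without the 2 farthest libraries 6 were called over all genes, and 4 without mice 21BL and 23BLR. In anterior libraries 2 genes, Cldn2 and Lbp, were called without strain and housing terms against 0. Between strains, DESeq2 called 2 genes in standard and 3 in enriched posterior libraries against 0 by edgeR, and leaving out 1 mouse gave 0 to 1 in standard posterior libraries. No result changed its sign while called. Many of the genes had single reads in anterior libraries, where a change in size cannot be measured at this depth. The causes of these differences were not tested.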
